A study of Oryza sativa with 6 samples.

Results

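The genes described here are the rice protein phosphatases of type 2C (PP2C) that carry a family number, OsPP2C01 to OsPP2C78, apart from the numbers 08, 09, 27, 30 and 51. A gene was taken where its symbol or a synonym in the RefSeq gene table is such a number and where the array holds a probe set assigned to that gene alone. Among 60 numbered genes listed there, 5 were left out by number and 5 had no such probe set (OsPP2C41, OsPP2C49, OsPP2C50, OsPP2C65 and OsPP2C77), which leaves 50 members among the 17905 genes with a single-gene probe set on the array. Transcripts were measured in caryopses, the developing grains, collected 7 days after flowering. The mutant gif1 gave 3 arrays and the wild type Zhonghua11, a japonica cultivar, gave 3 arrays, each labelled as a biological replicate. GIF1, the gene behind the mutant, encodes an invertase of the cell wall that cleaves sucrose delivered to the filling grain. The labels name neither the gif1 allele nor how many plants made up a replicate, so p-values measure the spread between these samples.

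Type 2C phosphatases are single-subunit enzymes that need magnesium or manganese and remove phosphate from serine and threonine residues of other proteins. Plants have many of them, grouped into clades by sequence. The best known is clade A, whose members hold SnRK2 kinases inactive until the hormone abscisic acid (ABA) brings a PYL receptor onto the phosphatase. In Arabidopsis other clades act on MAP kinases, on receptor kinases and, under the control of SAUR proteins, on the proton pump of the plasma membrane. ABA drives maturation in cereal grains, and ABA-responsive PP2C genes form a feedback on its signal.

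Leaving out those numbers does not remove the ABA clade completely, and whether each left-out gene, OsPP2C27 among them, belongs to it was not checked. OsPP2C06 and OsPP2C53 bear the synonyms ABIL1 and ABIL2 (ABI-like) in the gene table, and OsPP2C68, also OsPP108, is known as a clade A member. These 3 of the 50 members are therefore marked below, and the set is called the numbered PP2C genes rather than a clade.

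The deposited values are linear signal intensities. The mean after trimming 2% of probe sets at each end was 500.1 on every array, while the median signal was 67.5 to 72.6 on gif1 arrays and 83.7 to 103.6 on wild-type arrays. Hybridization controls, added after labelling, read lower on each gif1 array than on any wild-type array (log2 difference -0.51; exact two-sided permutation test, p = 0.1, which is as low as this design can reach). The poly-A controls, which are added to the RNA before labelling, stood further apart, at 316 to 350 on gif1 arrays and 693 to 1939 on wild-type arrays (log2 difference -1.93, exact permutation p = 0.1). The part of this difference in the members' falls was not tested. The GIF1 probe set read 173.3, 100.9 and 190.4 in gif1, against 654.2, 428.6 and 607.7 in wild type, a log2 difference of -1.77 (SE 0.28, limma adjusted p = 0.00254). The position of its probes in the gene was not checked against the mutation. Log2 differences below are gif1 minus wild type on the scale log2(signal + 17.7), and a gene is said to have risen or fallen where limma's adjusted p over 28597 probe sets was under 0.05.

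Of the 50 members 9 fell in gif1, 1 rose and 40 did not pass. OsPP2C25, OsPP2C59 and OsPP2C29 fell by more than 1 on the log2 scale, OsPP2C18 fell by an amount that its dim signal does not fix, OsPP2C61, OsPP2C21, OsPP2C68, OsPP2C12 and OsPP2C40 fell by less, and OsPP2C28 rose. The share that fell was 18.0% of the members, against 5.63% of the 15423 tested genes taken with 1 probe set each, and the share that rose was 2.0%, against 7.92%. In either direction 10 of the 50 members passed, against 13.6% of the tested genes and 12.0% of all tested probe sets, of which 5.98% passed as rises. The members lie on 12 chromosomes, with 11 on chromosome 2. Leaving out 1 array lowered the count of falls to 3 without gif1 replicate 3, 4 without gif1 replicate 1, and 5 without gif1 replicate 2 or wild-type replicate 3. Without the intensity trend in the variance model the calls of OsPP2C59 (limma adjusted p = 0.0789), OsPP2C29 (0.0597), OsPP2C68 (0.107), OsPP2C12 (0.119), OsPP2C40 (0.110) and OsPP2C28 (0.154) were lost. All 50 members reached the minimum mean signal for testing (74.1), OsPP2C18 only through its wild-type arrays, and 8 members fell without it. The median log2 difference was -0.11 over the members, 0.03 over all tested genes and -0.06 over all tested probe sets. In bulk tissue fewer cells of a type and less RNA per cell cannot be told apart.

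**Figure D1:**
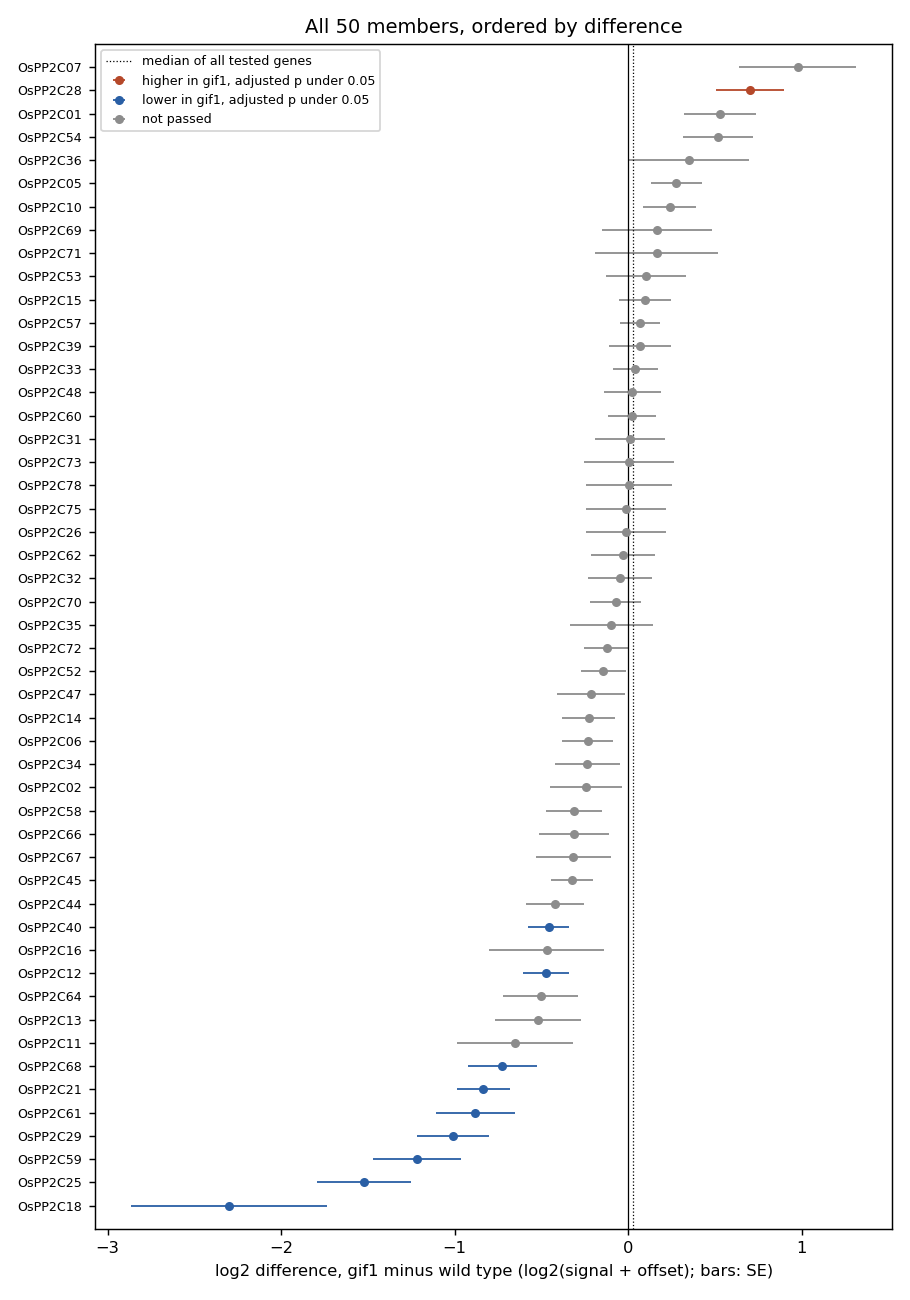
Log2 difference, gif1 minus wild type, of each of the 50 members (points) with its standard error (bars), ordered from the highest to the lowest; 3 arrays per genotype. Of the members that fell, OsPP2C18 is at -2.30, a size set in part by the added offset, and the other 8 lie between -1.52 and -0.46; OsPP2C28 at 0.70 is the only called rise, and OsPP2C07 at 0.98 lies above it without passing.

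How the arrays are scaled sets the balance between rises and falls. With arrays centred on their median 6 members rose and 4 fell, where over all probe sets 5817 rose and 613 fell. With arrays scaled to the hybridization spikes 13 members rose and 3 fell, against 9777 and 477 over all probe sets, and 1709 and 1716 as deposited. Quantile normalization gave 0 rises and 8 falls among the members by limma (4 rises at an unadjusted p under 0.05). Over all tested genes, 1 probe set each, 7.03% then rose and 5.17% fell. With median centring 26.95% of these genes rose and 1.82% fell, and with spike scaling 45.43% rose and 1.41% fell. The median log2 difference over all tested probe sets was 0.28 after median centring and 0.43 with spike scaling, while that of the members was 0.23 and 0.38. The members' falls are therefore stated relative to the level of the whole array.

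OsPP2C25 fell in gif1, and this call passed under each of the 16 alternative settings run, leaving out any single array included. Its signal was 141.8, 137.8 and 184.5 in gif1, against 329.9, 607.6 and 527.2 in wild type. Every gif1 array lay below every wild-type array. The means were 155 ± 25.9 in gif1 and 488 ± 143 in wild type (SD, n = 3 each), with a log2 difference of -1.52 (SE 0.27, limma adjusted p = 0.00519). Its smallest fall was with spike scaling (-1.04, limma adjusted p = 0.0106) and its largest without wild-type replicate 1 (-1.77).

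OsPP2C18 had the dimmest probe set of the members, and it was tested only because its wild-type signal lifted the mean over the 6 arrays above the minimum. It read 10.1, 24.0 and 11.9 in gif1, against 139.3, 140.0 and 147.7 in wild type. The wild-type arrays lay close together and above the gif1 arrays. The fitted log2 difference was -2.30 (SE 0.57, limma adjusted p = 0.0236), but its size is not a measured one, because the gif1 signals lie within the range of probe sets that have no plant target. Of the 64 reporter probe sets, which stand for foreign marker genes, up to 32 read at least as high as OsPP2C18 on a gif1 array and up to 4 on a wild-type array. The size of the difference depends on the added offset, being -3.32 with none, where the call was lost (limma adjusted p = 0.0581), and -1.31 with 4 times the offset, where it passed. The call was lost without wild-type replicate 2 (limma adjusted p = 0.0764) or 3 (0.0756) and without gif1 replicate 1 (0.0606) or 3 (0.0594), where the log2 difference stayed between -2.31 and -2.19. In gene order OsPP2C18 stands on chromosome 2 with 3 genes between it and OsPP2C16, the closest pair of numbered PP2C genes. OsPP2C16 read 125.5, 117.5 and 215.6 in gif1, against 229.1, 267.7 and 152.7 in wild type. These groups overlapped, and its log2 difference of -0.47 (SE 0.33) did not pass.

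OsPP2C59 read 416.9, 344.4 and 320.9 in gif1, against 579.3, 854.2 and 1269.5 in wild type. The wild-type arrays were spread widely, yet the lowest of them lay above all gif1 arrays (log2 difference -1.22, SE 0.26, limma adjusted p = 0.0117). Without gif1 replicate 3 the call was lost (-1.14, adjusted p = 0.0540), and the difference ran from -1.49 without wild-type replicate 1 to -0.94 without wild-type replicate 3. OsPP2C29 read 294.3, 277.9 and 448.5 in gif1, against 662.3, 697.8 and 704.6 in wild type. Here the wild-type arrays were tight and gif1 replicate 3 stood above the other gif1 arrays (log2 difference -1.01, SE 0.21, limma adjusted p = 0.0111). Its call was lost without gif1 replicate 1 (-0.93, adjusted p = 0.0511) and with spike scaling (-0.52, adjusted p = 0.109).

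OsPP2C21 read 620.5, 626.0 and 598.6 in gif1, against 990.7, 1216.1 and 1137.8 in wild type. The gif1 arrays differed little from each other, and all lay below wild type (log2 difference -0.84, SE 0.15, limma adjusted p = 0.00592). This call passed without any single array, but not with median centring (-0.50, adjusted p = 0.0801) or spike scaling (-0.34, adjusted p = 0.172). Its probe set ends in _x_at and can bind transcripts of related genes. OsPP2C61 read 172.8, 189.7 and 200.6 in gif1, against 391.5, 311.1 and 383.8 in wild type. The groups were apart (log2 difference -0.88, SE 0.23, limma adjusted p = 0.0286), but the call was lost without any single array other than wild-type replicate 2 (adjusted p up to 0.0929), with differences of -0.93 to -0.83. Under median centring and spike scaling its difference was -0.55 and -0.41 and did not pass.

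OsPP2C68, the marked clade A member that fell, read 658.9, 438.4 and 507.2 in gif1, against 965.3, 726.2 and 982.3 in wild type. The highest gif1 array lay just below the lowest wild-type array (log2 difference -0.72, SE 0.20, limma adjusted p = 0.0359). The call was lost without wild-type replicate 1 (-0.66) or 3 (-0.65) and without gif1 replicate 2 (-0.60) or 3 (-0.70), with adjusted p up to 0.132, and with spike scaling the difference was -0.23 (adjusted p = 0.474). The other marked members did not pass. OsPP2C06 (ABIL1) read 1658.7, 1403.0 and 1271.3 in gif1, against 1801.0, 1503.0 and 1781.1 in wild type (log2 difference -0.23, SE 0.15). OsPP2C53 (ABIL2), known in rice as a negative regulator of ABA responses, read 356.4, 357.0 and 452.4 in gif1, against 430.8, 398.7 and 266.0 in wild type (log2 difference 0.10, SE 0.23). Both had overlapping groups. Without the 3 marked genes 8 of 47 members fell and OsPP2C28 rose.

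The smallest falls were those of OsPP2C40 and OsPP2C12. OsPP2C40 read 2690.7, 2615.8 and 2566.0 in gif1, against 3392.7, 3959.3 and 3505.3 in wild type (log2 difference -0.46, SE 0.12, limma adjusted p = 0.0264). OsPP2C12 read 1434.5, 1488.2 and 1499.8 in gif1, against 1800.5, 2270.2 and 2117.9 in wild type (-0.47, SE 0.13, limma adjusted p = 0.0410). In both genes the gif1 arrays lay within a narrow range below all wild-type arrays. With spike scaling both differences turned to the other sign, 0.05 for OsPP2C40 and 0.03 for OsPP2C12, and did not pass, and with median centring they were -0.12 and -0.14. The OsPP2C40 call was lost without wild-type replicate 2 (-0.39) and without gif1 replicate 1 (-0.48), 2 (-0.46) or 3 (-0.44), with adjusted p up to 0.102, and that of OsPP2C12 without any single array other than wild-type replicate 1 (-0.49 to -0.40, adjusted p up to 0.129). The OsPP2C12 probe set ends in _s_at, a kind that can bind transcripts of several genes.

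OsPP2C28 was the only member called as a rise. It read 5346.0, 4086.4 and 3590.3 in gif1, against 3311.5, 1962.2 and 2785.5 in wild type. The means were 4341 ± 905 in gif1 and 2686 ± 680 in wild type (SD, n = 3 each), and the lowest gif1 array stood above the highest wild-type array (log2 difference 0.70, SE 0.19, limma adjusted p = 0.0384). The difference was larger with median centring (1.04) and spike scaling (1.21) and did not pass with quantile normalization (0.66, adjusted p = 0.0613). Leaving out any single array other than wild-type replicate 1 ended the call, with differences from 0.49 without wild-type replicate 2 to 0.83 without gif1 replicate 3 and adjusted p up to 0.156.

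**Figure D2:**
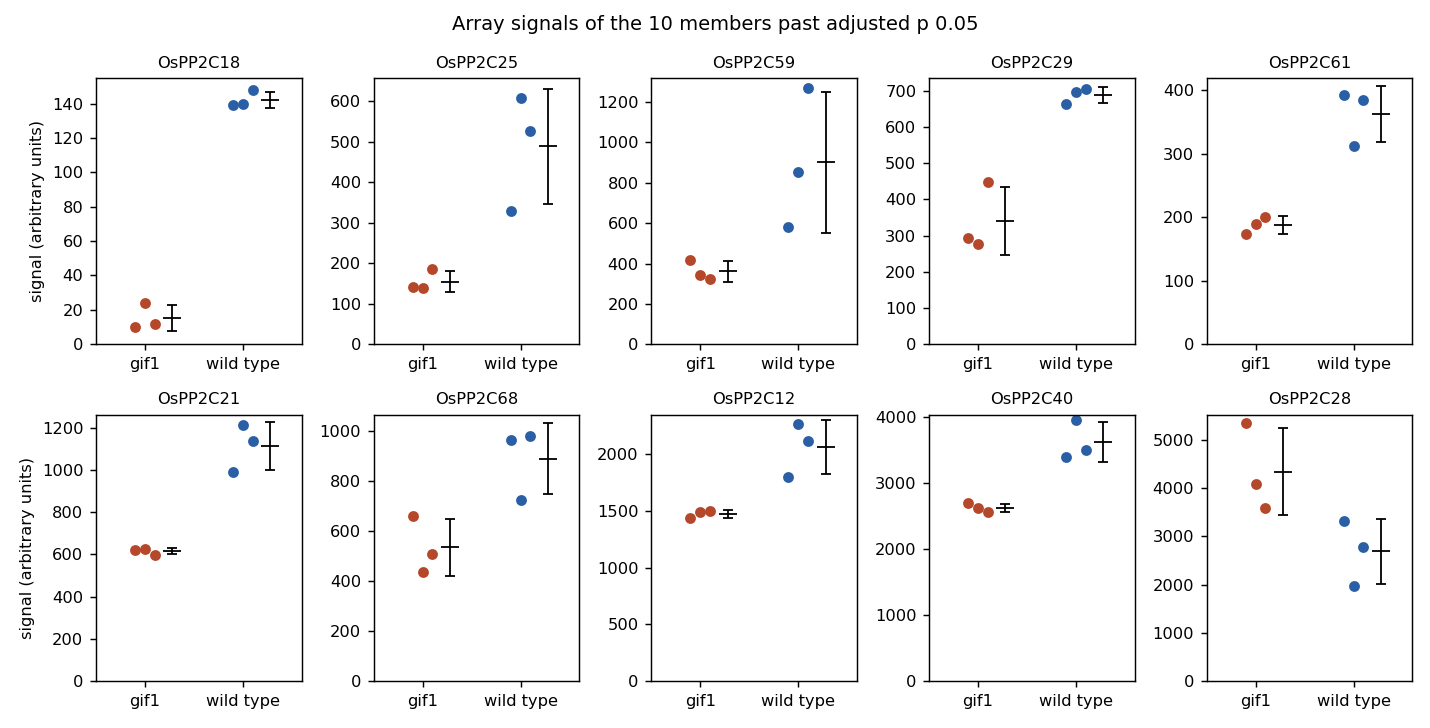
Signal (arbitrary units, axes from 0) of the 10 called members on each gif1 array and each wild-type array, with a tick at the mean and a bar for the SD of each genotype beside the points (n = 3). The genotypes do not overlap in any of the 10 panels, and only OsPP2C28 is higher in gif1.

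**Figure D3:**
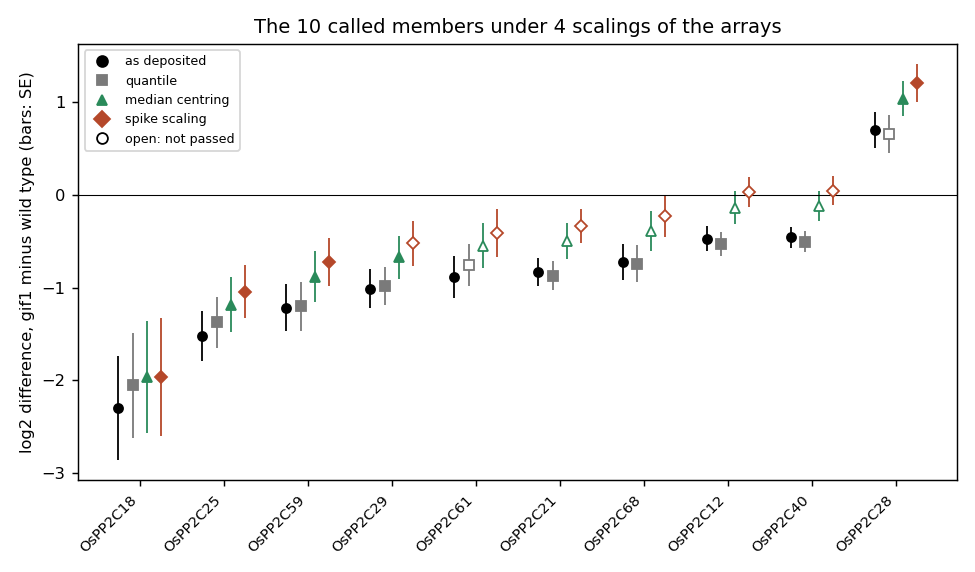
Log2 difference, gif1 minus wild type, with SE for the 10 called members under 4 scalings of the arrays, open symbols marking differences that did not pass. OsPP2C25 and OsPP2C59 passed as falls under each of the 4, whereas OsPP2C12 and OsPP2C40 stood at 0.03 and 0.05 with spike scaling. OsPP2C18 passed under each of the 4 too, but it was tested only through its wild-type arrays. Its gif1 signals lie within the reporter range, and its call was lost without the added offset.

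Most of the numbered PP2C genes gave a signal above the reporter background in the 7-day grain. The brightest reporter read 92.1 to 191.5, depending on the array, and 43 of 50 members exceeded it on all 6 arrays. The other 7 (OsPP2C07, OsPP2C16, OsPP2C18, OsPP2C25, OsPP2C36, OsPP2C69 and OsPP2C71) exceeded it on 1 to 5 arrays. The members' mean signals ran from 78.8 to 4573, with a median of 776, and their median lay at the 81.7th percentile of all probe sets. Of the 17905 genes taken in the same way, by their brightest probe set, 15423 reached the median over all probe sets, as did all 50 members. The share of all genes above the reporters was not counted. A mean signal over 1000 was found for 21 members and one under 200 for 4. Signals of different probe sets depend on their probes, so this order is one of brightness and not of transcript amounts.

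The 6 brightest probe sets belonged to OsPP2C60, OsPP2C28, OsPP2C57, OsPP2C40, OsPP2C45 and OsPP2C52. OsPP2C60 read 5032.7, 4282.0 and 4462.3 in gif1, against 4389.6, 5405.1 and 3863.3 in wild type (log2 difference 0.02, SE 0.14). OsPP2C57 read 3226.8, 3226.1 and 3468.6 in gif1, against 3246.6, 3353.3 and 2866.4 in wild type (0.07, SE 0.12). OsPP2C52 read 2964.3, 2894.5 and 2512.5 in gif1, against 2701.9, 3276.0 and 3281.4 in wild type (-0.14, SE 0.13). In these 3 genes the genotypes overlapped as deposited. With spike scaling OsPP2C60 (0.53, adjusted p = 0.0248) and OsPP2C57 (0.58, adjusted p = 0.0106) passed as rises. OsPP2C45 read 2583.2, 2647.4 and 2679.2 in gif1, against 3182.3, 3697.4 and 3066.7 in wild type. All its gif1 arrays lay lower, yet the log2 difference of -0.32 (SE 0.12, limma adjusted p = 0.102) did not pass, and it was 0.01 and 0.18 with median centring and spike scaling.

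**Figure D4:**
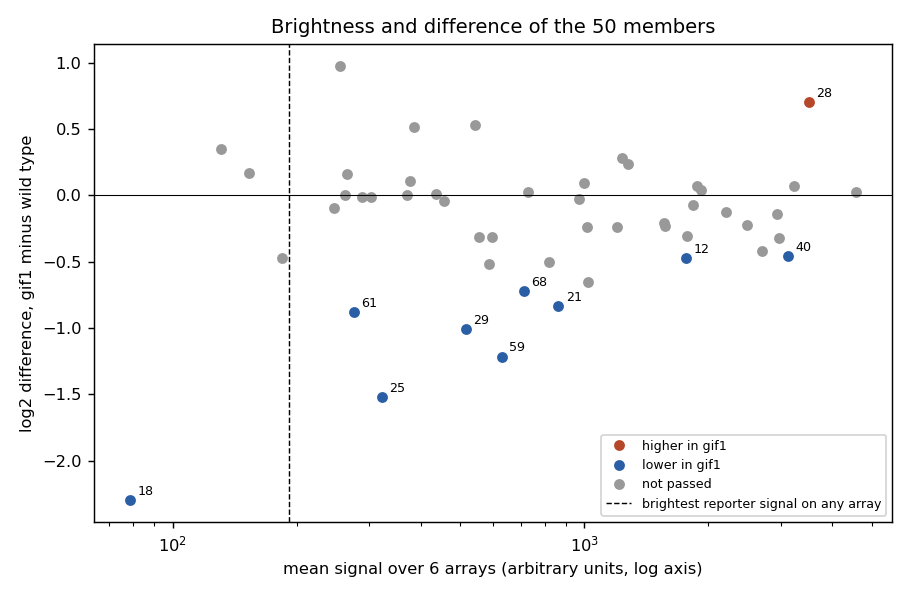
Mean signal over 6 arrays (log axis, arbitrary units) against the log2 difference, gif1 minus wild type, for the 50 members, with numbers on the 10 called ones. The dashed line marks the brightest reporter signal on any array (191.5). OsPP2C18 lies left of it at 78.8, and OsPP2C12 and OsPP2C40 lie among the members with a mean signal over 1000.

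The genotypes did not overlap in 14 of 50 members, 4 of them higher and 10 lower in gif1. Such separation was found in 35.5% of all tested genes (20.0% higher and 15.5% lower in gif1) and in 33.4% of all tested probe sets. They are the 10 called members and OsPP2C01, OsPP2C07, OsPP2C54 and OsPP2C45. OsPP2C07 read 287.2, 467.6 and 265.8 in gif1, against 98.5, 246.1 and 161.7 in wild type. Its log2 difference of 0.98 (SE 0.34, limma adjusted p = 0.0830) was larger than that of OsPP2C28, and it passed without wild-type replicate 2 and under median centring and spike scaling. A second probe set of OsPP2C07, ending in _x_at, differed by 0.15 (SE 0.34). OsPP2C01 (0.53, SE 0.21, limma adjusted p = 0.118) and OsPP2C54 (0.52, SE 0.20, limma adjusted p = 0.116) were also higher on every gif1 array without passing. OsPP2C54 read 446.4, 452.1 and 466.4 in gif1, against 371.4, 307.7 and 265.8 in wild type. Under median centring and under spike scaling OsPP2C01, OsPP2C05, OsPP2C07, OsPP2C10 and OsPP2C54 passed as rises beside OsPP2C28.

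A role or a response outside ABA signalling is known for the 3 members below, a list that is not complete. None of these 3 passed by limma or at an unadjusted p under 0.05. OsPP2C35 is XB15, which dephosphorylates the immune receptor kinase XA21, and it read 234.9, 249.7 and 226.1 in gif1, against 247.1, 216.8 and 306.6 in wild type (log2 difference -0.10, SE 0.24). OsPP2C13 is DCW11, described through its lower expression in cytoplasmic male-sterile rice, and it read 643.1, 352.5 and 450.3 in gif1, against 637.7, 901.3 and 540.4 in wild type (-0.52, SE 0.25, limma adjusted p = 0.197). OsPP2C34 is BIPP2C2, named for its induction by the defence activator benzothiadiazole, and it read 713.8, 1209.2 and 896.9 in gif1, against 1156.6, 1033.4 and 1067.7 in wild type (-0.24, SE 0.19). The groups overlapped in all 3.

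Among the 40 members that did not pass, 22 differences were below 0 and 18 above, and 27 lay within 0.3 of 0 on the log2 scale. They ran from -0.65 to 0.98. The lowest was that of OsPP2C11, which read 474.7, 644.3 and 1317.5 in gif1, against 1749.7, 884.0 and 1045.1 in wild type (SE 0.33). Its arrays scattered within both genotypes, and the groups overlapped. OsPP2C64 (-0.50, SE 0.21) and OsPP2C44 (-0.42, SE 0.17) also had values below 0 that did not pass, with overlapping groups and limma adjusted p-values of 0.149 and 0.121. By the brightest probe set of each gene, OsPP2C26, OsPP2C31, OsPP2C73, OsPP2C75 and OsPP2C78 lay between -0.01 and 0.01, with SEs of 0.20 to 0.26.

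Of the members 39 had 1 probe set and 11 had several, with 16 further probe sets in all. Of these 13 were bright enough to be tested, and the dimmest probe set of OsPP2C66 was the single one that passed. It was chosen after its values were seen. It read 174.9, 65.8 and 55.6 in gif1, against 689.4, 261.4 and 755.1 in wild type (fitted log2 difference -2.34, SE 0.44, limma adjusted p = 0.00737). It exceeded all reporters on 4 of 6 arrays, and up to 13 of the 64 reporters read at least as high on a gif1 array, so the size of this difference is not fixed either. Every gif1 array lay below every wild-type array, although wild-type replicate 2 stood near gif1 replicate 1. The brightest probe set of the same gene read 629.6, 447.0 and 409.1 in gif1, against 645.6, 656.0 and 532.9 in wild type (-0.31, SE 0.20), and the other one differed by -0.16 (SE 0.23). Both of these overlapped between genotypes and did not pass. Whether the probe sets assigned to OsPP2C66 differ from each other was not tested. The fall of the dimmest one did not pass without the intensity trend in the variance model (adjusted p = 0.0686). For OsPP2C73, which has 4 probe sets, differences ran from -0.96 to 0.45, and none passed by limma. Further probe sets of OsPP2C75 differed by -0.63 (SE 0.31) and -0.27 (SE 0.37), and neither passed. The dim further probe set of OsPP2C45 differed by -1.42 (SE 0.64) and did not pass. At an unadjusted p under 0.05, 3 of the 13 tested further probe sets were lower in gif1 and 0 were higher.

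**Figure D5:**
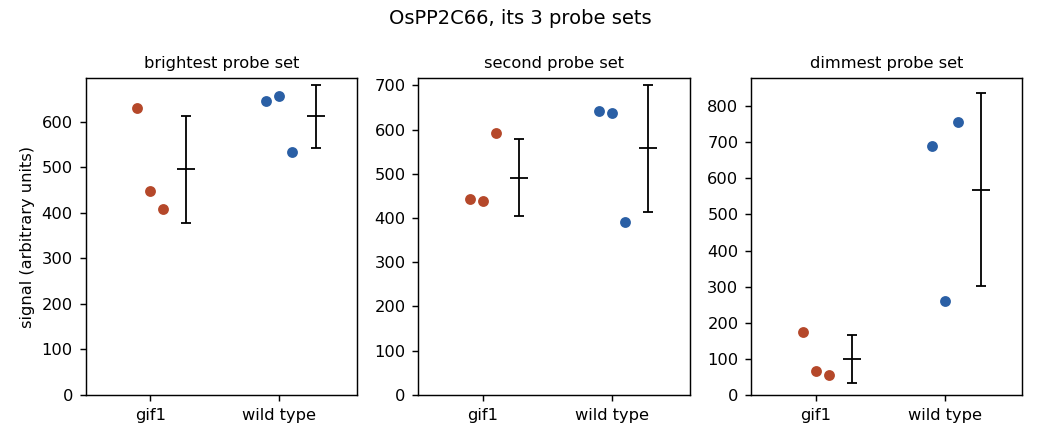
Signal (arbitrary units, axes from 0) of the 3 probe sets of OsPP2C66 on each gif1 array and each wild-type array, with mean and SD per genotype (n = 3). The genotypes overlap in the brightest and the second probe set and are apart in the dimmest, where gif1 read 55.6 to 174.9 and wild type 261.4 to 755.1.

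The 5 genes left out by number can be set beside the members. OsPP2C08 (log2 difference -1.17, SE 0.18), OsPP2C27 (-0.99, SE 0.18), OsPP2C09 (-0.87, SE 0.17) and OsPP2C30 (-0.63, SE 0.18) fell, with limma adjusted p-values of 0.00258, 0.00556, 0.00858 and 0.0401. OsPP2C51 (-0.18, SE 0.33) did not pass. OsPP2C27 was brighter than any member, with 9245.1, 7573.8 and 7400.8 in gif1, against 13586.7, 13530.5 and 22353.6 in wild type. Whether the members differ from these 5 genes was not tested. The call of OsPP2C30 was lost without any single array other than wild-type replicate 1, with differences from -0.72 to -0.43 and adjusted p up to 0.138. With spike scaling OsPP2C09 (-0.37), OsPP2C27 (-0.49) and OsPP2C30 (-0.13) did not pass.

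Among 33 tested genes matched by name to PP2C partners or other phosphatases, 4 passed, 12.1%, a share near the 13.6% of all tested genes. Of 10 SnRK2 kinases, a family that includes targets of clade A, SAPK5 rose (0.73, SE 0.21, limma adjusted p = 0.0431), SAPK3 fell (-0.45, SE 0.11, limma adjusted p = 0.0213) and the test called no other. At an unadjusted p under 0.05, 1 of the 10 was higher and 2 were lower. SAPK3 read 3616.4, 3986.6 and 3923.3 in gif1, against 5179.5, 5082.0 and 5470.3 in wild type, but stood at 0.06 with spike scaling. The call of SAPK5 was lost without any array other than wild-type replicate 1 (0.55 to 0.84, adjusted p up to 0.152), and that of SAPK3 without wild-type replicate 3 (-0.42) or any 1 gif1 array (-0.47 to -0.40, adjusted p up to 0.0921). The single ABA receptor matched by name, PYL11, differed by 0.00 and did not pass.

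Of 15 MAP kinases with a probe set 1 fell, none rose by limma (2 at an unadjusted p under 0.05) and 14 did not pass. The one that fell was MPK10, with 836.9, 1059.3 and 748.7 in gif1, against 1081.0, 1655.5 and 1969.3 in wild type (-0.79, SE 0.22, limma adjusted p = 0.0362). Its call was lost without wild-type replicate 2 (-0.73) or 3 (-0.61) and without gif1 replicate 1 (-0.76) or 3 (-0.68), with adjusted p up to 0.137. SAUR39, a regulator of auxin synthesis and transport in rice, rose, with 2547.5, 2569.4 and 1925.4 in gif1, against 1108.9, 1742.9 and 1221.3 in wild type (0.80, SE 0.18, limma adjusted p = 0.0181). Its call was lost without gif1 replicate 1 (0.73, adjusted p = 0.0811) or 2 (0.73, adjusted p = 0.0770). The MAP kinase kinase MKK1 (0.23) did not pass, nor did WNK1 (0.25), a kinase of another family that shares the alias MEK1. Of the 4 PP2A genes (0.24 to 0.40), which encode phosphatases of another family, none passed by limma and 2 were higher at an unadjusted p under 0.05.

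Marker genes of grain tissues differed between the genotypes too. These markers were chosen with earlier results of these data known, so their counts do not stand as independent evidence. Their calls and sums are given as deposited, so they are relative to the level of the whole array. Of all tested genes, 1 probe set each, 7.92% rose and 5.63% fell. Of 6 matched starchy endosperm markers 5 fell, and their summed signal was 255624 to 284612 in gif1 and 356975 to 477110 in wild type. Of 5 green pericarp markers 4 rose, with sums of 93789 to 114891 in gif1 and 74776 to 79974 in wild type. The other one, CAB2R, was lower on every gif1 array without passing (log2 difference -0.25, SE 0.09, limma adjusted p = 0.106). Of 5 matched aleurone and embryo markers, among them rab25 and Emp1, 3 fell and OSH1 rose, with sums of 18868 to 21052 in gif1 and 45168 to 80596 in wild type. None of the 16 markers was at 0 on any array, the lowest reading 345.6. The part of these tissues in the members' differences was not tested.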

How the data were processed

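Labelled RNA of 6 samples was hybridized to Affymetrix rice arrays, 3 of gif1 and 3 of wild type, and the number of arrays limits the precision. The deposited intensity signals are linear and come from the GCOS software, version 1.4, per the submitters' processing notes. Its settings are not given in the sources used here. Of 57381 probe sets 187 controls were left out. An offset of 17.7, the 25th percentile over the 6 arrays, was added before taking log2, which understates differences of dim probe sets. The test covered the 28597 whose signal averaged 74.1 or more, the median over probe sets.

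Genotypes were compared with limma 3.58.1 in R 4.3.3 (lmFit and eBayes with an intensity trend, no replicate block), and p-values were adjusted by Benjamini-Hochberg across the whole tested set. The brightest probe set stood for a gene. The platform annotation gave 1 gene for 22436 probe sets and several for 95, and did not list 34850. All 22436 were found in the RefSeq gene table of assembly ASM3414082v1, used for gene names and order. No genome build is stated for the array, so coordinates of this assembly served only to put the genes in order. Sequences were not used. Technical measures were compared by exact permutation tests. The fit was tested on simulated data, where it recovered 26 of 100 changes of 2-fold and 74 of 100 of 4-fold. Of its 106 calls there, 6 were false. Only these changes were set among 28597 simulated probe sets, far fewer than the 3425 called in the data. The shares recovered there need not hold for the data. A difference that did not pass is not shown to be absent. Alternatives covered the offset, the filter, the trend, array weights, 3 other scalings, a replicate block, each array left out and the dimmest probe set of each gene.

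The genes given per array are GIF1, members past 0.05 and the 6 brightest; other members, and the further probe set of OsPP2C66, were named after their values were seen. The members and lists were chosen with earlier results of these data known. PP2C genes that also matched the list of other phosphatases (2) were counted only as members, 1 MAP kinase had no probe set, no gene matched the list of dual-specificity phosphatases, and 2 of 18 tissue markers, BEI and RAB16A, were not matched by name. Python 3.11.15 with matplotlib 3.10.9 made the figures.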

Additional observations from a re-analysis of the deposited data

How the results depend on the processing

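As deposited, 1709 probe sets rose and 1716 fell, and 1 member rose and 9 fell. Without the intensity trend the counts were 368 and 416 for probe sets and 0 and 4 for members. With median centring they were 5817 and 613, and 6 and 4. With spike scaling they were 9777 and 477, and 13 and 3. Testing all probe sets without a filter gave 1122 falls, and 0 members then rose, as with quantile normalization. Where limma called 0 members as rises, 1 to 4 of them were higher at an unadjusted p under 0.05. Leaving out 1 array at a time gave 727 to 2289 rises and 709 to 2005 falls of probe sets, and 0 to 1 rises and 3 to 7 falls of members. The fewest member falls (3) came without gif1 replicate 3. The members' falls numbered 4 without gif1 replicate 1, 5 without gif1 replicate 2 and 5 without wild-type replicate 3. Same-numbered arrays of the genotypes did not deviate together (correlations of deviations -0.034, 0.022 and -0.047), so the numbers were not taken as pairs. The replicate number as a block gave 1436 rises and 1394 falls, and 6 falls and 1 rise of members, ending the calls of OsPP2C12, OsPP2C40 and OsPP2C61 (adjusted p = 0.0619, 0.0503 and 0.0529). With spike scaling 3 log2 differences that had passed changed sign, those of OsPP2C12 (0.0307), OsPP2C40 (0.0483) and SAPK3 (0.0598). A stricter filter on dim probe sets removed OsPP2C18 and OsPP2C61 from the test. Of 717 values computed under alternatives for 45 log2 differences, 607 stayed on the same side of the threshold, 93 lost the call, 14 gained one and 3 are the changes of sign above. The cause of these changes was not tested. The 607 include differences that had not passed as deposited and so had no call to lose. Among the called members, the alternatives that kept the call ran from 5 of 15 for OsPP2C61 to 16 of 16 for OsPP2C25. Signals near the reporter background, as for OsPP2C18, limit what can be said of its level in gif1.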
